A study of Mus musculus with 48 samples.

Results

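Long clonotypes of the mouse heavy-chain B cell receptor (BCR) repertoire were examined in the lacrimal gland (LG) and the spleen. A clonotype was a combination of V gene, J gene and amino acid sequence of the heavy-chain complementarity-determining region 3 (HCDR3), and it was taken as long when the HCDR3 had 17 or more residues. The members were chosen by length alone. They numbered 101629 of 3182102 clonotypes (3.19%), with 1176 of 37638 in the LG, 100669 of 3154791 in the spleen, and 216 in both tissues.

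The repertoires came from 24 C57BL/6 (B6) mice, each of which gave 1 LG and 1 spleen library of total RNA primed in the heavy-chain constant region. The NOD-FMT group (n = 10) received a fecal microbiota transplant by gavage, once a day for 3 weeks from 5 weeks of age. The feces came from 30 NOD.B10.H2b mice over 20 weeks old, a strain that develops autoimmune dry eye. The PBS-T group (n = 9) was gavaged with phosphate-buffered saline on the same schedule, and both treated groups had first had their feces mixed between cages for 7 days and then ampicillin, vancomycin and metronidazole in the drinking water for 7 days. The NC group (n = 5) was not treated, so antibiotics, gavage and fecal mixing cannot be told apart where it is compared with the others. The age of the NC mice was not given in the sources used here.

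The HCDR3 is the most variable loop of the antibody heavy chain and lies at the centre of the antigen-binding site. It is built when a V, a D and a J segment are joined, with bases trimmed from the segment ends and others added without a template. Its length therefore depends on which segments were used and on how much was trimmed or added at each joint. Mouse repertoires hold fewer long HCDR3s than human ones, and pairs of cysteines inside a long loop can form a disulphide bridge in some species.

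Germline segments are shown first, since the later results on D, J and V genes refer to them. All lie on the reverse strand of chromosome 12 (mm10) and are written 5′ to 3′ in the coding direction. IGHD1-1 (chr12:113482170-113482192) has 23 bases, and IGHD4-1 (chr12:113430528-113430538) has 11. For the J genes IGHJ1 (chr12:113429781-113429833), IGHJ2 (chr12:113429468-113429567), IGHJ3 (chr12:113429085-113429132) and IGHJ4 (chr12:113428514-113428567) only the part inside the HCDR3 is given, up to the conserved tryptophan codon. For the V genes IGHV1-62-2 (chr12:115446409-115446869), IGHV8-8 (chr12:115294062-115294504) and IGHV6-3 (chr12:114391712-114392169) only the bases after the conserved cysteine codon are given.
IGHD1-1: tttattactacggtagtagctac
IGHD4-1: ctaactgggac
IGHJ1: ctactggtacttcgatgtc
IGHJ2: actactttgactac
IGHJ3: cctggtttgcttac
IGHJ4: attactatgctatggactac
IGHV1-62-2: gcaagacacgaaga
IGHV8-8: gctcgaatag
IGHV6-3: acagg
The HCDR3 part of IGHJ4 has 20 bases and that of IGHJ1 19, against 14 each for IGHJ2 and IGHJ3. IGHV1-62-2 gives 14 bases to the HCDR3, IGHV8-8 gives 10 and IGHV6-3 gives 5.

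Members of the repertoire show how these segments were used. The 3 long clonotypes held by the most spleens all joined IGHD1-1 to IGHJ1, and capitals mark the longest stretch that matches the germline D gene. Spleen clonotype 1 used IGHV3-6 and was held by 8 mice on 13 counts in all, while spleen clonotypes 2 and 3 used IGHV5-16 and were held by 7 mice each, on 32 and 18 counts.
spleen clonotype 1: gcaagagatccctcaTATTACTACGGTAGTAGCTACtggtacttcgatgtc
spleen clonotype 2: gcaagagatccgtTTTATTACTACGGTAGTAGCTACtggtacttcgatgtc
spleen clonotype 3: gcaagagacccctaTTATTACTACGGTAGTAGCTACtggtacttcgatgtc
These clonotypes were read in 9, 5 and 5 nucleotide versions, and 1 of each is shown. The D matches in the 3 shown were 21, 23 and 22 of the 23 germline bases, and all ended in the same 19 germline bases of IGHJ1. The closing CTAC of each D match is counted in the IGHJ1 match as well. The long clonotypes that took the highest share of an LG library are shown for contrast, with the D match again in capitals. Each is 1 nucleotide version, of 6, 4 and 6.
LG clonotype 4: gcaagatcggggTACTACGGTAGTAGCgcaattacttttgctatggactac
LG clonotype 5: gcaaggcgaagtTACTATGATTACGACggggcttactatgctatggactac
LG clonotype 6: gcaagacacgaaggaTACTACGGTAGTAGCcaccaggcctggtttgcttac
LG clonotype 4 (IGHV1-64, IGHD1-1, IGHJ4) held 2.56% of the counts of NOD-FMT mouse 9, on 4411 counts. LG clonotype 5 (IGHV5-17, IGHD2-4, IGHJ4) held 2.26% in NC mouse 1, and LG clonotype 6 (IGHV1-62-2, IGHD1-1, IGHJ3) held 2.04% in NOD-FMT mouse 2. LG clonotype 7 (IGHV1-82, IGHJ1, 19 residues) held 1.80% in NOD-FMT mouse 8, and LG clonotype 8 (IGHV1-18, IGHD1-1, IGHJ4) held 1.78% in NC mouse 3. These 5 were IgA on 99.3% to 100% of their counts, and each was also read in the spleen of the same mouse, on 124, 5, 51, 3 and 3 counts.

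Depth differed widely between libraries. After sequences identical in 3 or more mice of a tissue were removed, LG libraries held 40105 to 264365 counts and 14 to 547 long clonotypes (median 28.5), and spleen libraries 621 to 17570 long clonotypes (median 3901). In the LG library with the fewest clonotypes, 20 of 560 were long, 3.57% with a 95% Wilson interval of 2.32 to 5.45%, which covers counting error only. The filter took 2.02% of the long counts of the LG and 0.0844% of those of the spleen, against 10.003% and 10.05% of the shorter ones. It fell unevenly on the libraries. The spleen of PBS-T mouse 6 went from 215159 to 71859 counts, and the LG of PBS-T mouse 5 from 360216 to 216868. Such a loss of shorter counts raises the share of counts on long clonotypes. The paper reports much smaller losses under a rule worded the same way, and the reason for the difference was not tested.

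Several LG libraries stood apart. PBS-T mouse 5 held 17213 LG clonotypes, 547 of them long, where no other LG library held more than 75 long ones. NC mouse 2 shared 29 of its 45 long LG clonotypes with the LG of NC mouse 3, at a median of 4 counts against 60. Of those 29, 20 were in the spleen of NC mouse 3 and 0 in the spleen of NC mouse 2, although that spleen held 5 other long clonotypes of its own LG. PBS-T mouse 7 shared 13 of 20 long LG clonotypes and NC mouse 4 shared 11 of 38 with the LG of PBS-T mouse 5, at a median of 1 count against 67. The LG of PBS-T mouse 5 also shared 7 of the 25 long clonotypes of NC mouse 5, 7 of the 39 of NC mouse 1, and 4 each with NC mice 2 and 3, so all 5 NC libraries overlapped with it. Where each shared clonotype was kept only in the LG library with the most counts of it, the long share fell from 4.43% to 2.51% in NC mouse 2 and from 3.24% to 1.86% in PBS-T mouse 7, and went from 4.96% to 6.39% in NC mouse 3. Results that rest on LG libraries are given with both treatments of these clonotypes where they differ. Of the 24 LG libraries 11 (6 NOD-FMT, 4 PBS-T and NC mouse 4) carry a mark of having been merged, and the labels do not say what was merged.

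IGHV1-87 also stood apart among the members. Of its 830 spleen clonotypes 727 counted as long. In 698 of the 727 the deposited HCDR3 begins with 9 residues of framework 3, the last of them its conserved cysteine, and 15 of the 698 would stay at 17 or more residues without those 9. In the most abundant one, from the spleen of PBS-T mouse 4 on 13 counts, capitals mark the 27 framework bases that encode SEDSAVYYC.
IGHV1-87 clonotype: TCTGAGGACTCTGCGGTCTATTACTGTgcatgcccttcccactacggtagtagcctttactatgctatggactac
IGHV1-87 made up 0.722% of the long spleen clonotypes and 5 of 1176 in the LG. It held 724 of 3015 long spleen clonotypes with a cysteine, 100 of 192 with 2 or more, and 31 of 68 with 25 or more residues. Its long sequences carried 45.5 V mutations on average, against 0.997 in the long sequences of the other V genes. IGHV8-6 showed a mean of 42.1 V mutations in 239 long and 40.2 in 3827 shorter spleen sequences. Cysteine results are therefore given with and without IGHV1-87, and mutation results of the spleen also without both genes.

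The HCDR3 lengths fell away steeply past the threshold. In the spleen, 60.4% of the long clonotypes had 17 residues, 25.2% had 18, 9.58% had 19, 4.73% had 20 to 24, and 68 clonotypes had 25 or more, up to 38. In the LG, 61.2% had 17 residues and 26.4% had 18, with 1 clonotype over 24 residues, at 35. Just inside the threshold, 17 residues took 1.73% ± 0.220 (SD, n = 24) of the spleen clonotypes of a library and 1.97% ± 0.586 of the LG ones. Just outside it, 16 residues took 3.69% ± 0.446 and 4.01% ± 1.15.

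**Figure D1:**
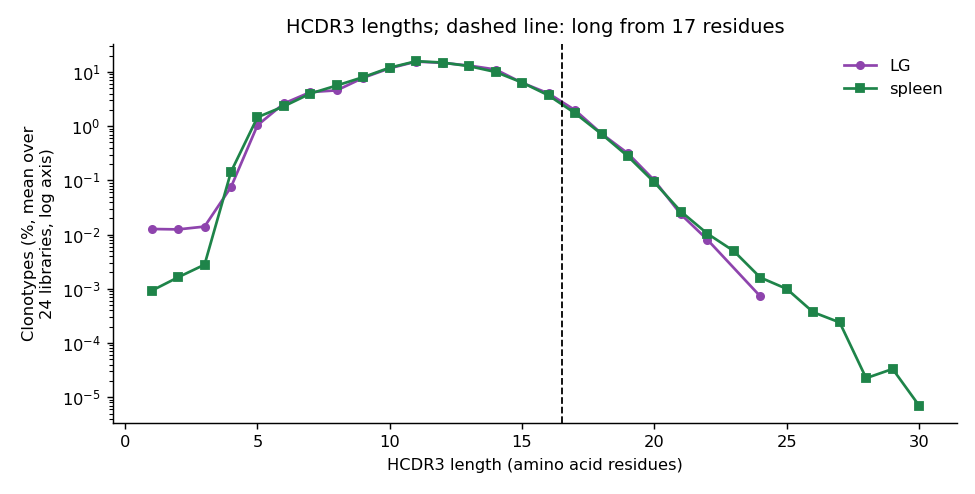
Share of clonotypes at each HCDR3 length, as the mean over the 24 libraries of each tissue (log axis, in percent; x axis in amino acid residues, drawn up to 30, lengths with no clonotypes left out). The dashed line marks the threshold, past which the tissues lie close together, and the curve passes from 1.73% at 17 residues to 0.717% at 18 in the spleen.

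The longest members were read from few counts. The longest spleen clonotype on 2 or more counts (35 residues, IGHV2-3 with IGHJ3, 2 counts in PBS-T mouse 4) held 3 tyrosines and 1 cysteine. The W-G-x-G motif that normally follows the HCDR3 lay inside it in 4 of 68 spleen clonotypes of 25 or more residues (5.88%), in 0.134% of those of 17 to 19 and in 0.225% of the shorter ones. The LG clonotype of 35 residues held it as well.

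The first comparison asked whether the share of long clonotypes differed between the groups. In the LG, long clonotypes made up 1.79% (lowest), 3.05% (median) and 4.47% (highest) of the clonotypes of the NOD-FMT mice. The PBS-T mice ran from 1.99% over a median of 2.77% to 4.61%, and the NC mice held 4.21, 4.43, 4.96, 3.68 and 2.78%. The ranges of all groups overlapped, with 3 of 5 NC values above the PBS-T median by more than 1 percentage point. Group means were 2.90% ± 0.906 (NOD-FMT, n = 10), 2.96% ± 0.798 (PBS-T, n = 9) and 4.01% ± 0.826 (NC, n = 5).

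NOD-FMT and PBS-T differed by -0.0553 percentage points in the LG (two-sided exact permutation test, p = 0.889). NOD-FMT lay 1.11 points under NC (exact permutation p = 0.0416) and PBS-T 1.06 points under NC (exact permutation p = 0.0430), and with the p-values adjusted over the 8 group comparisons both came to 0.172. Neither difference was called. Merged LG libraries held a lower long share than the others within NOD-FMT (2.44% against 3.59%, exact permutation p = 0.0476) and within PBS-T (2.40% against 3.40%, exact permutation p = 0.0556). Among the libraries without that mark, NOD-FMT lay 0.504 points under NC (exact permutation p = 0.429) and PBS-T 0.696 points under NC (exact permutation p = 0.254), and among the merged ones NC had 1 library. With shared clonotypes kept in 1 LG library, the unadjusted p rose to 0.148 and 0.143 (exact permutation).

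In the spleen no difference was called. Long clonotypes made up 2.88% ± 0.452 in NOD-FMT, 2.91% ± 0.310 in PBS-T and 2.77% ± 0.546 in NC, with exact permutation p-values of 0.879 (NOD-FMT against PBS-T), 0.726 (NOD-FMT against NC) and 0.579 (PBS-T against NC). The lowest values were 1.79% in NOD-FMT mouse 2 and 1.84% in NC mouse 2, and the highest was 3.44%.

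The share of counts was compared in the same way. Long clonotypes held 2.03% ± 1.43 of the LG counts in NOD-FMT, 1.46% ± 1.23 in PBS-T and 3.46% ± 2.22 in NC, and NOD-FMT and PBS-T differed by 0.571 points (exact permutation p = 0.365). Among merged LG libraries NOD-FMT lay 0.0496 points above PBS-T (1.15% against 1.10%, exact permutation p = 0.890), and among the others 1.60 points above (3.35% against 1.74%, exact permutation p = 0.143). In the spleen the count shares were 2.26% ± 0.754, 2.68% ± 1.03 and 2.12% ± 0.507, with an exact permutation p of 0.331 for NOD-FMT against PBS-T. One clonotype could set much of such a share. The top long clonotype of a library held 7.01% to 90.5% of its long counts in the LG (median 43.8%) and 2.14% to 31.7% in the spleen (median 8.85%).

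**Figure D2:**
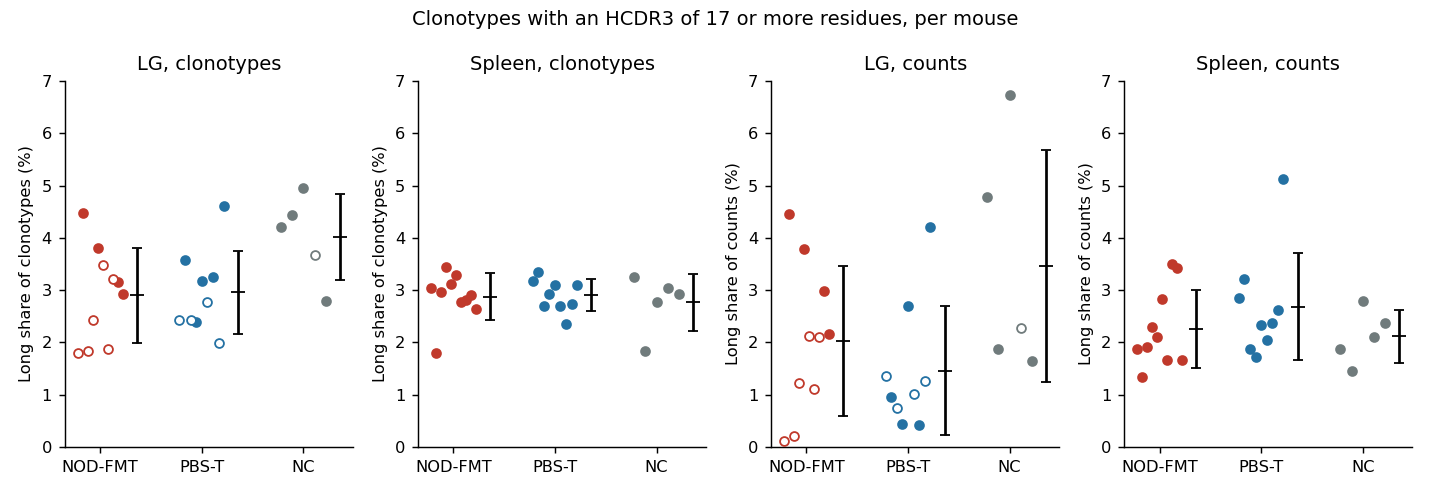
Share of long clonotypes (left pair of panels) and of counts on long clonotypes (right pair) in every mouse, in percent, by group. Each point is 1 mouse, open points are LG libraries marked as merged, and bars give the mean ± SD. The NC mice of the LG sit at 2.78 to 4.96% of clonotypes, overlapping both treated groups, and the spleens sit between 1.79 and 3.44%.

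LG and spleen were then compared within mice. The long share was 3.15% ± 0.930 in the LG and 2.86% ± 0.410 in the spleen, higher in the LG of 15 of 24 mice, and the difference of 0.289 points was within the spread between mice (sign-flip permutation test, two-sided, p = 0.213). Over clonotypes of 5 or more counts alone, the LG share was higher by 1.41 points (permutation p = 1e-05, the smallest that 100000 draws can give). With all libraries thinned to the lowest count total of their tissue, the difference was 0.547 points (permutation p = 0.0231). By counts, LG minus spleen was -0.276 points over all mice (permutation p = 0.426), -0.230 in NOD-FMT (exact sign-flip permutation p = 0.654) and 1.34 in NC, higher in the LG of 4 of 5 mice (exact sign-flip permutation p = 0.312). In PBS-T mice long clonotypes held 1.46% of LG and 2.68% of spleen counts and were lower in the LG of 8 of 9 mice (exact sign-flip permutation p = 0.00781). By share of clonotypes the same mice differed by 0.0508 points (exact sign-flip permutation p = 0.824). The PBS-T result by counts rests on filtered libraries. The filter took the spleen of PBS-T mouse 6 from 215159 to 71859 counts, where long clonotypes then held 2.04%, against 1.01% in its LG. It took the LG of PBS-T mouse 5 from 360216 to 216868 counts, with 2.70% then above the 2.33% of its spleen. Such losses raise the long share, and the PBS-T result by counts was not tested without the filter. None of these p-values within mice was adjusted. By clonotypes, the within-mouse tissue difference was not called as different between groups, with adjusted permutation p-values of 0.959 (NOD-FMT against PBS-T), 0.124 (NOD-FMT against NC) and 0.103 (PBS-T against NC).

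D genes were compared between the long and the shorter clonotypes of each library. IGHD1-1, whose bases are shown above, took 67.6% (lowest), 70.7% (median) and 73.6% (highest) of the long clonotypes of the spleen libraries, against 29.7, 32.3 and 33.3% of the shorter ones. No spleen library overlapped between the classes. In the LG, IGHD1-1 took 47.8, 70.5 and 90.7% of the long and 24.6, 28.0 and 35.6% of the shorter clonotypes, again without overlap. The mean differences were 38.3 points ± 1.60 (SD, n = 24) in the spleen and 42.0 points ± 12.5 in the LG, with adjusted p of 1.06e-05 and 6.33e-05 (sign-flip permutation, 24 of 24 mice higher in both).

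A gene was called where the sign-flip permutation p within libraries, adjusted over the genes of its kind, was under 0.05. In the spleen 19 of 19 D categories were called (100%), of which 2 were higher in long clonotypes (10.5%) and 17 lower (89.5%). The second of those higher was IGHD2-4, at 10.6% ± 0.892 against 9.36% ± 0.481 (adjusted permutation p = 1.06e-05), higher in 23 of 24 mice. Lower were IGHD4-1, the short D gene shown above, at 0.529% against 8.51%, IGHD2-3 at 4.31% against 8.05%, IGHD2-5 at 4.33% against 5.92%, IGHD2-1 at 3.71% against 6.26% and IGHD3-2 at 1.53% against 4.15%. The remaining 11 genes were under 4% in both classes. These are shares of all clonotypes of a class, so the rise of IGHD1-1 by itself lowers those of the other genes. Shares among clonotypes without IGHD1-1 were not compared. Clonotypes without a D call fell from 12.3% of the shorter to 0.0675% of the long ones. A short HCDR3 leaves fewer bases to match to a D gene, and length defined the classes. This category is therefore a description, though it is counted among those called in both tissues. D bases are themselves part of the length that defined the classes, so the calls of D genes describe those classes as well. In the LG 4 of 19 categories were called (21.1%): IGHD1-1 was higher (5.26%), and IGHD4-1 (1.06% against 10.6%), IGHD2-3 (3.14% against 7.87%) and no D call (0.174% against 13.6%) were lower (15.8%). A lower value was tested only where the median library would hold 1 or more long clonotypes of the gene, which left 7 of 19 LG categories testable in that direction.

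The 2 J genes with the longer HCDR3 part were higher in long clonotypes. IGHJ4 took 49.5% ± 1.78 of the long and 25.7% ± 1.15 of the shorter spleen clonotypes, and IGHJ1 took 29.6% ± 1.59 and 14.8% ± 0.414. IGHJ2 fell from 34.8% to 12.4% and IGHJ3 from 24.6% to 8.46%. In the LG, IGHJ4 took 51.1% ± 15.5 against 23.3% ± 3.92 and IGHJ1 31.5% ± 14.6 against 17.6% ± 3.55, while IGHJ2 stood at 10.6% against 35.1% and IGHJ3 at 6.74% against 23.95%. All 4 J genes were called in both tissues (100%), 2 higher and 2 lower (50% each), with adjusted p from 1e-05 to 6e-05 by permutation. The J bases are part of the length that defined the classes, and the 4 shares add up to 100%. These calls therefore describe the classes. Read from the gene, 5.55% of the IGHJ1 and 5.36% of the IGHJ4 clonotypes of a spleen were long, but 1.04% of the IGHJ2 and 1.00% of the IGHJ3 ones.

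**Figure D3:**
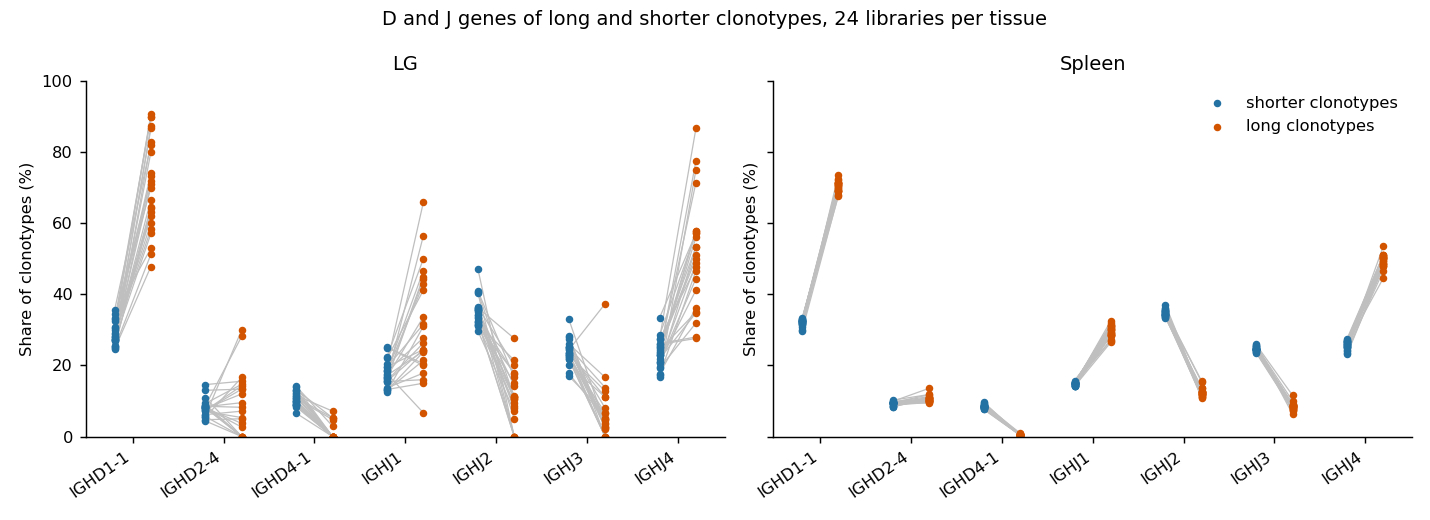
Share of clonotypes (percent) with each D or J gene among shorter (blue) and long (orange) clonotypes. Each point is 1 library and lines join the same library, 24 per tissue. IGHD1-1 lies at 67.6 to 73.6% of the long and 29.7 to 33.3% of the shorter spleen clonotypes, and the LG libraries spread more widely, with IGHD2-4 on both sides of the shorter clonotypes.

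Pairs of segments were counted as well. IGHD1-1 joined to IGHJ1 or IGHJ4 made up 56.0% ± 1.05 of the long spleen clonotypes and 13.96% ± 0.574 of the shorter ones. In the LG the shares were 59.2% ± 14.7 and 13.04% ± 2.18. Multiplying the separate D and J shares of each library gave 55.7% ± 1.54 for the long spleen and 58.4% ± 14.1 for the long LG clonotypes, and the pair share differed from that product by 0.319 ± 0.948 and 0.797 ± 4.01 points on average. Among shorter clonotypes the pair share lay above the product by 0.931 ± 0.168 points in the spleen (24 of 24 libraries) and 1.25 ± 1.51 points in the LG (19 of 24). IGHD1-1 with IGHJ2, by contrast, took 9.25% of the long and 12.0% of the shorter spleen clonotypes. The most abundant long clonotype of a library had IGHD1-1 in 17 of 24 LG and 18 of 24 spleen libraries, and IGHJ1 or IGHJ4 in 22 and 17.

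The parts of the HCDR3 were measured in bases. A long HCDR3 of the spleen averaged 52.8 bases, 18.8 more than a shorter one, and the bases that match the D gene rose from 9.26 to 16.8, those that match the J end from 12.0 to 16.1 and those that match the V end from 5.62 to 6.61. The other bases rose from 7.13 to 13.1. They hold added and mutated nucleotides, and also germline V or J bases that lie beyond the first mismatch. In the LG the D match was 16.4 against 8.95 bases, the J match 15.2 against 11.5, the V match 6.43 against 5.41 and the rest 14.6 against 8.45. All 4 parts were longer in 24 of 24 spleens, and in 24 of 24 LGs except for the V end (23 of 24). Matches were searched separately and may overlap, and no test was run, since the length itself defined the classes.

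IGHD1-1 can be read in different frames. The tyrosine-rich frame YYYGSSY was found, by any 4 consecutive residues, in 72.0% ± 1.58 of the long and 44.7% ± 0.925 of the shorter IGHD1-1 clonotypes of the spleen. The hydrophobic frame FITTVVA was found in 21.9% ± 1.03 and 13.4% ± 0.456. In the LG, YYYGSSY was in 67.3% ± 14.8 of the long and 46.6% ± 4.92 of the shorter ones, and FITTVVA in 18.9% ± 15.1 and 7.07% ± 2.26. The remaining frame, which holds stop codons and gives only LLLR as 4 consecutive residues, was found in 0.272% ± 0.129 of the long and 0.549% ± 0.0717 of the shorter spleen clonotypes of IGHD1-1, lower in 24 of 24 mice, and in 0.331% and 0.637% of those of the LG. A longer match to the D gene gives more chances to find such a window, so these shares do not compare the use of the frames. Among the IGHD1-1 clonotypes of the spleen in which exactly 1 frame was found, YYYGSSY was that frame in 76.5% ± 1.10 of the long and 76.2% ± 0.514 of the shorter ones, and FITTVVA in 23.2% ± 1.08 and 22.8% ± 0.498. In the LG the values were 78.1% ± 16.3 against 85.8% ± 4.32 and 21.5% ± 16.8 against 13.0% ± 4.02. No test was run on the frames.

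V genes were compared in the same way. In the spleen 65 of 84 V genes were called (77.4%, and 79.8% at an unadjusted p under 0.05), 21 higher (25%) and 44 lower (52.4%) in long clonotypes. IGHV1-62-2, whose germline end is the longest shown above, took 3.79% (lowest), 5.44% (median) and 7.07% (highest) of the long clonotypes and 0.915, 1.07 and 1.22% of the shorter ones, with no overlap between the classes. It was followed by IGHV8-8 (4.52% against 1.80%), IGHV8-12 (2.51% against 1.33%), IGHV1-18 (3.19% against 2.36%) and IGHV5-6 (1.67% against 1.03%), each higher in 24 of 24 mice with an adjusted permutation p of 2.71e-05. Lowest against the shorter clonotypes were IGHV6-3 (0.471% against 2.34%), IGHV1-53 (3.11% against 4.15%), IGHV6-6 (0.406% against 1.39%), IGHV14-2 (0.636% against 1.52%) and IGHV14-4 (0.461% against 1.15%), each lower in 24 of 24 mice.

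In the LG 1 of 91 V genes was called (1.1%, and 7.69% at an unadjusted p under 0.05), and it was IGHV1-62-2 again. Its share of the long LG clonotypes ran from 0 over a median of 3.39% to 21.4%, and of the shorter ones from 0.141 over 0.583 to 2.64%. The means were 5.18% and 0.818%, higher in 17 of 24 mice (sign-flip permutation, adjusted p = 0.0255). The call was lost where LG clonotypes shared by mice were kept in 1 library, over clonotypes of 5 or more counts, with sequences in 2 or more mice removed, and where 1 of 8 mice was left out (NC 1 and 4, NOD-FMT 4, 5 and 6, PBS-T 1, 3 and 7). IGHV8-12 (4.99% against 1.15%, adjusted permutation p = 0.0942) and IGHV1-18 (5.75% against 2.35%, adjusted permutation p = 0.295) were not called. Only 3 of the 91 genes could be tested for a lower share at this depth. On simulated LG data the test called 1 of 20 V genes that were moved, against 20 of 20 on simulated spleen data.

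The long share within a V gene was set beside its germline end. In the spleen 13.2% ± 2.39 of the IGHV1-62-2 clonotypes were long (14 germline bases after the cysteine codon), against 6.94% ± 1.07 for IGHV8-8 (10 bases), 5.29% ± 1.12 for IGHV8-12 (10 bases) and 0.585% ± 0.258 for IGHV6-3 (5 bases). Summed over the LG libraries, 81 of 487 IGHV1-62-2 clonotypes and 9 of 602 IGHV6-3 clonotypes were long. As means over the LG libraries with 20 or more clonotypes of a gene, IGHV1-62-2 stood at 21.7% ± 24.1 (3 libraries) and IGHV8-12 at 8.21% ± 9.97 (4 libraries). IGHV8-8 stood at 3.67% ± 2.10 (5 libraries), under IGHV6-3 at 3.97% ± 8.54 (9 libraries). Of the 20 matched V genes that were higher in long spleen clonotypes, 14 gave 8 or more germline bases, as did 9 of the 44 that were lower. Among those not called it was 4 of 17, and among all matched spleen genes 27 of 81. Across 81 V genes of the spleen, Pearson's r between the number of bases and the long share was 0.615 and Spearman's rho 0.343, and across 80 genes of the LG they were 0.447 and 0.161. These describe genes read in the same libraries, and IGHV1-62-2 stands alone at 14 bases. The V end bases are also part of the length that defined the classes. Many of the LG values rest on 1 library.

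**Figure D4:**
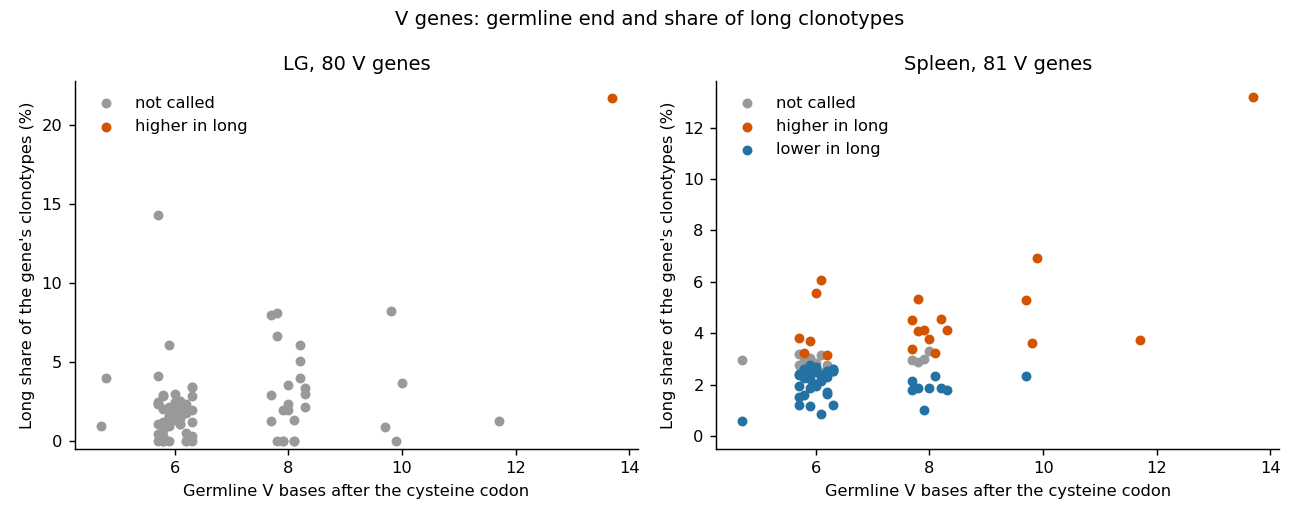
Long share of the clonotypes of each V gene (percent) against the number of germline V bases after the cysteine codon, 1 point per gene, shifted sideways within a length so that points do not hide each other. Colour gives the call for the share among long against shorter clonotypes. IGHV1-62-2 lies at 14 bases and 13.2% in the spleen, apart from all other genes, and its LG point of 21.7% rests on the 3 libraries with 20 or more clonotypes of the gene.

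Tyrosine was the residue that gained most. Tyrosine is the residue most used in mouse HCDR3s and makes many antigen contacts. It took 23.5% (lowest), 24.1% (median) and 24.4% (highest) of the residues of long spleen HCDR3s and 20.1, 20.5 and 20.8% of those of shorter ones, without overlap. In the LG it took 14.98, 23.1 and 30.1% against 19.7, 20.9 and 22.6%, and the ranges overlapped. The differences were 3.56 points ± 0.184 in the spleen (24 of 24 mice, adjusted p = 1.25e-05, sign-flip permutation) and 2.60 points ± 2.83 in the LG (21 of 24 mice, adjusted p = 0.000675, sign-flip permutation). A long HCDR3 of the spleen held 4.24 tyrosines on average and a shorter one 2.32.

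Tyrosine was also measured apart from IGHD1-1. Among spleen clonotypes with other D genes or none, tyrosine took 25.1% ± 0.339 of the residues of long and 20.3% ± 0.207 of shorter HCDR3s. With IGHD1-1 it took 23.7% ± 0.284 and 20.9% ± 0.130. In the LG the values were 23.2% ± 4.15 against 20.0% ± 0.849 without IGHD1-1, over the 20 libraries with enough long clonotypes, and 23.6% ± 3.89 against 22.3% ± 0.919 with it.

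Of the 20 residues 18 were called in the spleen (90%), 9 higher and 9 lower (45% each), and 13 in the LG (65%), 6 higher (30%) and 7 lower (35%). After tyrosine the gains were in serine (8.66% against 6.64% in the spleen, 8.15% against 6.12% in the LG) and valine (5.03% against 3.76%, and 5.18% against 3.74%). The widest falls in share were in alanine (10.7% against 13.6% in the spleen), phenylalanine (3.97% against 5.76%) and arginine (7.57% against 9.17%). In the LG they were in alanine (10.53% against 12.6%), phenylalanine (4.52% against 6.25%) and aspartate (8.79% against 10.3%). These are shares of the residues of a longer loop. Counted per HCDR3, a long spleen clonotype held more of each, with 1.88 alanines against 1.54, 1.33 arginines against 1.04 and 0.698 phenylalanines against 0.653. Net charge per residue, taken as lysine and arginine minus aspartate and glutamate, was lower in long spleen clonotypes (-0.0302 against -0.0218, lower in 24 of 24 mice, adjusted permutation p = 2.29e-05). In the LG it was -0.0117 against -0.00777 and was not called (adjusted permutation p = 0.971).

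**Figure D5:**
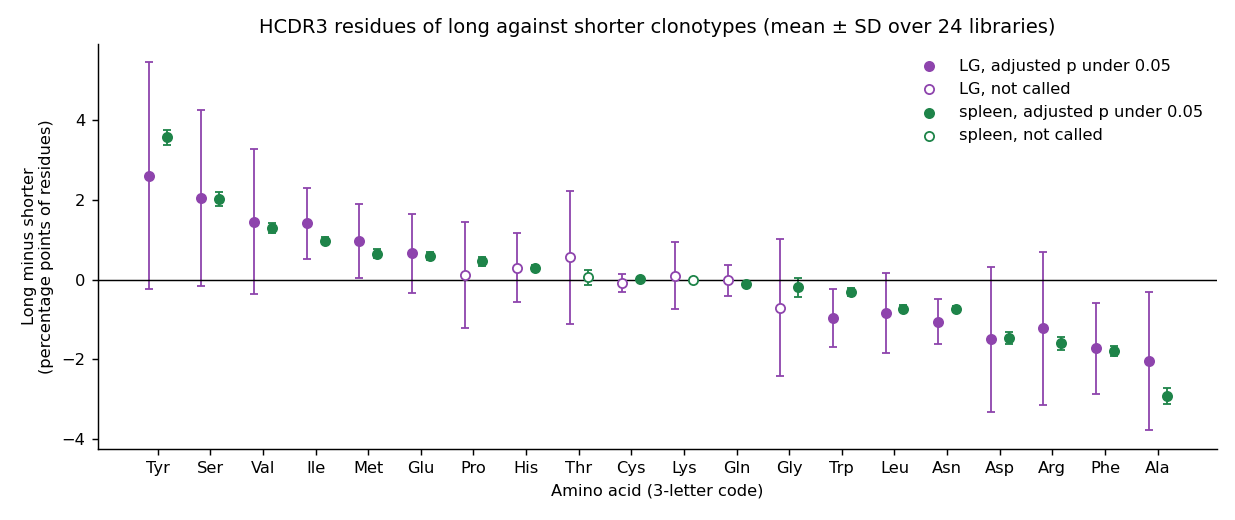
Difference between long and shorter clonotypes in the share of each amino acid of the HCDR3, in percentage points, as mean ± SD over 24 libraries per tissue. Filled points are called (adjusted p under 0.05). Tyrosine is highest at 3.56 points in the spleen and alanine lowest, and the LG follows with a wider spread.

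Cysteine results depended on IGHV1-87. As deposited, 3.04% of the long and 1.85% of the shorter spleen clonotypes held 1 or more cysteines and 0.201% and 0.0294% held 2 or more. Without IGHV1-87 the shares of long clonotypes were 2.33% and 0.108%, against 1.85% and 0.0291%. A longer loop has more positions that can be a cysteine, so these shares per clonotype are given as a description. Over clonotypes of 5 or more counts alone their differences were 0.353 and 0.130 points (adjusted permutation p = 0.706 and 0.280). Per residue the direction turned with the gene. Cysteine took 0.184% of the residues of long and 0.166% of shorter clonotypes as deposited (adjusted permutation p = 0.0110), but 0.138% and 0.166% without IGHV1-87 (adjusted permutation p = 0.000600, lower in 22 of 24 mice). With IGHV1-87 kept, the difference per residue was not called over clonotypes of 5 or more counts (-0.0327 points, adjusted permutation p = 0.279), in thinned libraries (0.0145 points, adjusted permutation p = 0.135) or with a threshold of 16 residues (-0.000296 points, adjusted permutation p = 0.954). In the LG the cysteine difference was -0.0813 points as deposited (adjusted permutation p = 0.119) and -0.143 points without IGHV1-87 (adjusted permutation p = 0.00112). Only 27 of 1176 long LG clonotypes held a cysteine, 5 of them IGHV1-87. As deposited, the median LG library would hold barely more than the 1 cysteine required to test for a lower value. The test called too many lower values of sparse items on simulated V gene data, and residues were not simulated. No conclusion is therefore drawn from the LG value without IGHV1-87.

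Pairs of cysteines were rare. Of 100669 long spleen clonotypes, 191 held 2 cysteines and 1 held 3 or more. IGHV1-87, whose deposited HCDR3 mostly takes in the framework cysteine, gave 99 of the 191 and the 1 with 3 or more. A single residue lay between the cysteines in 93 of those 99, but in 2 of the 92 from other V genes. In the LG 2 of 1176 held 2, and 1 of these was IGHV1-87. No clonotype with 2 or more cysteines was held by more than 1 mouse. The most abundant in each tissue are shown with the cysteine codons in capitals.
LG clonotype 10: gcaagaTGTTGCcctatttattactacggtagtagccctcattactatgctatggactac
spleen clonotype 5: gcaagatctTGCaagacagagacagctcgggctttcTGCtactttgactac
LG clonotype 10 (IGHV1-26, IGHD1-1, IGHJ4, 20 residues) was IgA on 10 counts in PBS-T mouse 5, with the cysteines side by side. Spleen clonotype 5 (IGHV1-64, IGHD3-2, IGHJ2, 17 residues) was IgM on 29 counts in NOD-FMT mouse 8, with its cysteines set apart.

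Isotypes were compared by the share of long clonotypes within each class. In the spleen it was 2.69% ± 0.397 among IgM, 2.85% ± 0.617 among IgA and 3.14% ± 0.877 among IgG clonotypes. IgG lay above IgM by 0.447 points ± 0.896, in 14 of 24 mice (sign-flip permutation p = 0.0160), and IgA by 0.158 points ± 0.704 (sign-flip permutation p = 0.284). By group, IgG and IgM stood at 2.78 and 2.71% in NOD-FMT, 3.64 and 2.72% in PBS-T, and 2.95 and 2.60% in NC. IgA stood at 2.52, 3.00 and 3.24%, under IgM in NOD-FMT only. The groups were not tested apart, and no p-value between isotypes was adjusted. IgD, an isotype of mature naive B cells that was compared after its values were seen, stood at 3.42% ± 0.519, above IgM in 24 of 24 mice by 0.733 points (permutation p = 1e-05). In the LG, IgA (3.13% ± 0.944) and IgG (3.14% ± 1.79) lay within the spread of their difference from IgM (2.73% ± 1.49) (sign-flip permutation p = 0.223 and 0.264).

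IgD also took more of the long counts. In the spleen it held 2.43% (lowest), 9.39% (median) and 15.7% (highest) of the counts on long clonotypes and 3.71, 5.99 and 8.47% of those on shorter ones, higher in 21 of 24 mice (adjusted permutation p = 2.29e-05). Over clonotypes of 5 or more counts alone the difference was 0.0850 points and was not called (adjusted permutation p = 0.138). IgM held 66.6% of the long counts, IgG 11.9% and IgA 11.9%, and none of these was called against the shorter clonotypes. In the LG, IgA held 89.5% ± 22.4 of the long and 88.4% ± 20.1 of the shorter counts. The spleen call for IgD stood among 10 of 16 features called there (62.5%), 6 higher (37.5%) and 4 lower (25%), and 2 of the 6 count cysteines per clonotype, for which a longer loop has more positions. In the LG 0 of 16 were called (0%), with 2 at an unadjusted permutation p under 0.05 (12.5%).

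V mutations were compared last. As deposited, long spleen sequences carried 1.37 V mutations on average and shorter ones 1.18 (20 of 24 mice, adjusted permutation p = 0.00165). The difference of 0.19 fell to 0.0158 with a threshold of 16 residues (adjusted permutation p = 0.733) and to 0.0380 over clonotypes of 5 or more counts (adjusted permutation p = 0.974), was not called weighted by counts (adjusted permutation p = 0.300), and reached 4.09 with a threshold of 20. For IgM sequences it was 0.0157, -0.0972 and 0.0758 in the first 3 of these settings, called in none (adjusted permutation p = 0.733, 0.575 and 0.365), and 4.02 with a threshold of 20. Of the 4827 spleen clonotypes of 20 or more residues 497 were IGHV1-87, whose long sequences carried 45.5 V mutations on average. The part of IGHV1-87 in the values at a threshold of 20 was not tested. With the threshold unchanged, the direction over all sequences turned without IGHV1-87, to 1.09 against 1.18 (adjusted permutation p = 0.220). The means stood at 1.01 against 1.14 without IGHV1-87 and IGHV8-6 (adjusted permutation p = 0.0596). IgM sequences turned too, from 1.05 against 0.878 (adjusted permutation p = 0.000300) to 0.783 against 0.877 without IGHV1-87 (adjusted permutation p = 0.0105) and 0.697 against 0.843 without both genes (adjusted permutation p = 0.00042). IgA sequences carried 3.70 against 4.00 as deposited (adjusted permutation p = 0.0738) and were called as lower without IGHV1-87 (3.59 against 4.00, adjusted permutation p = 0.0212) and without both (3.56 against 3.99, adjusted permutation p = 0.0177). IgG sequences were not called, at 3.07 against 2.98 as deposited (adjusted permutation p = 0.977) and 2.84 against 2.96 without both genes (adjusted permutation p = 0.869). The share of unmutated sequences kept its direction, at 71.8% of long against 68.5% of shorter sequences as deposited (19 of 24 mice, adjusted permutation p = 0.00442) and 72.3% against 68.5% without IGHV1-87 (adjusted permutation p = 0.00240). It was not called with libraries thinned (adjusted permutation p = 0.159), with a threshold of 20 residues (1.73 points, adjusted permutation p = 0.204), weighted by counts (adjusted permutation p = 0.724) or over clonotypes of 5 or more counts, where it turned to -0.815 points (adjusted permutation p = 0.706). In the LG, long sequences carried 2.21 and shorter ones 2.05 V mutations (adjusted permutation p = 0.971), and 35.2% against 28.6% were unmutated (adjusted permutation p = 0.108).

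Long clonotypes of the spleen had fewer counts and were shared less often. Of the long ones 8.49% had more than 1 count, against 14.7% of the shorter ones, and the mean of log2 counts was 0.19 against 0.31, each lower in 24 of 24 mice (adjusted permutation p = 2.29e-05). Over clonotypes of 5 or more counts alone the log2 difference turned, to 0.15 higher in long ones (adjusted permutation p = 0.00504). The share of a library's clonotypes that another spleen also held was 0.773% (lowest), 1.2% (median) and 2.74% (highest) for long and 11.8, 15.6 and 19.4% for shorter clonotypes, with no overlap. Over all spleens, 501 of 100669 long clonotypes (0.498%) were held by 2 or more mice, against 6.23% of the shorter ones.

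In the LG these features were not called. Long LG clonotypes had more than 1 count in 49.8% of cases and shorter ones in 49.6% (adjusted permutation p = 0.988), and 17.3% against 17.95% were found in another LG (adjusted permutation p = 0.971). Of the 1176 long LG clonotypes, 79 were held by 2 or more mice (6.72%), against 5.99% of the shorter ones. These include the clonotypes that the NC mice and PBS-T mouse 7 shared with the libraries named above, and 1 pair of mice, NC 2 and NC 3, accounts for 29. The most widely held was LG clonotype 1 (IGHV1-22, IGHD1-1, IGHJ4), in 7 LGs on 12 counts in all and never on more than 3. LG clonotype 2 was held by 5 LGs, with 173 of 179 counts in PBS-T mouse 5, and LG clonotype 3 by 4 LGs, with 153 of 158 counts in the same mouse.

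Many long LG clonotypes were also in the spleen of the same mouse. On average 27.6% ± 16.8 (n = 24) of the long LG clonotypes were read in the mouse's own spleen, and these held 74.2% ± 26.1 of the long LG counts. For shorter clonotypes the values were 33.4% ± 12.8 and 85.0% ± 18.2, both higher than for long ones, with no test run. In the spleens of other mice the mean was 0.201% ± 0.464. The lowest long value in the own spleen was 1.28%, in PBS-T mouse 5, and without that mouse the mean was 28.8% ± 16.2. By group, the long values were 25.997% ± 13.3 in NOD-FMT, 28.4% ± 22.1 in PBS-T and 29.4% ± 15.5 in NC.

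The last comparison set the long clonotypes of NOD-FMT mice against those of PBS-T mice. In the LG 0 of 18 features were called (0%), with 4 at an unadjusted exact permutation p under 0.05 (22.2%). These were tyrosine (22.2% ± 3.17 of residues in NOD-FMT, 25.6% ± 2.21 in PBS-T), cysteine residues (0.0641% against 0.286%), the IgA share of counts (96.4% ± 4.71 against 77.1% ± 33.8) and the IgM share (0.631% ± 0.757 against 16.9% ± 31.3), with adjusted exact permutation p from 0.154 to 0.224. Without IGHV1-87 the cysteine values were 0.0245% against 0.207%, not called either (adjusted exact permutation p = 0.0575). In the spleen 1 of 18 was called (5.56%). Net charge per residue was -0.0284 ± 0.000857 in NOD-FMT and -0.0313 ± 0.00232 in PBS-T, a difference of 0.00287 (exact permutation, adjusted p = 0.0185), and it was not called with ranks in place of means (adjusted exact permutation p = 0.0538) or under 6 other alternatives. No V gene was called among long clonotypes, of 91 in the LG (0%) and 84 in the spleen (0%). At an unadjusted exact permutation p under 0.05 there were 2 in the LG (2.2%; IGHV3-6, 1.23% against 5.71%, and IGHV1-76, 3.53% against 0.534%) and 4 in the spleen (4.76%), the widest being IGHV1-81 (2.15% against 2.73%).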

How the data were processed

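Heavy-chain BCR libraries of 24 LGs and 24 spleens were analysed, 1 of each per mouse. Per the labels and the methods of the study, total RNA was reverse-transcribed with constant-region primers that carry unique molecular identifiers (UMIs). The authors merged read pairs with PEAR, kept reads in which over 95% of bases had a Phred score of at least 20, clustered them by UMI, left out single reads and annotated V, D and J genes with IgBLAST. The deposited count of a sequence is its number of UMI clusters, and the deposited fraction is that count over the library total. The number of V mutations is the authors' count of mismatches to the germline V gene. The germline release is not given in the sources used here, and the labels name mm10.

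Sequences identical in 3 or more mice of a tissue were removed before clonotypes were formed. The contamination this may reflect was not tested. The members, lists and tests were chosen with earlier results of these data known. Group means were tested by exact permutation of the mice, two-sided. Long and shorter clonotypes, and tissues, were compared by sign-flip permutation within mice, with 100000 draws for 24 mice. P-values were adjusted by Benjamini-Hochberg within each family (8 group comparisons, 16 features, 18 features between groups, 20 residues, and V, D or J genes with a mean share of 0.1% or more). The test was then changed, since on simulated V gene data it called too many lower values of sparse items. V, D and J genes and residues were tested for lower values only where the median library would hold 1 or more among its long clonotypes. Nothing says whether mice shared a cage, so p-values measure the spread between these mice. Wilson intervals cover counting error only.

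Named were, per tissue, the 5 highest and 5 lowest called V genes, D and J genes called or over 5%, tyrosine, cysteine and the 3 highest and 3 lowest called residues. Named clonotypes were the 3 held by the most mice, the 5 with the highest share of an LG library, the longest on 2 or more counts and the one with 2 or more cysteines held by the most mice. Germline segments and positions came from the GENCODE annotation of mm10. Alternatives were other filters, thresholds of 16 and 20 residues, thinning, weighting by counts, ranks, a replicate block and leaving out each mouse. Added after seeing the data were the 2 runs without IGHV1-87 or without IGHV1-87 and IGHV8-6, LG clonotypes kept in 1 library, and lower values tested at any expected number. Python 3.11.15, NumPy 2.4.6, pandas 2.3.3, SciPy 1.17.1 and Matplotlib 3.10.9 were used.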

Additional observations from a re-analysis of the deposited data

Results flagged for a closer look

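Of 12 groups of libraries examined for a value apart, 2 held one, where chance gives about 1 in 20 groups. The spleen of NOD-FMT mouse 2 had the lowest share of long clonotypes of its group, 1.79%, with the next at 2.65%. The spleen of PBS-T mouse 9 had the highest share of counts on long clonotypes, 5.12%, with the next at 3.21%.

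The difference between long and shorter clonotypes was compared between LG and spleen (sign-flip permutation of the within-mouse difference, n = 24). It was run on 16 features, 20 residues, 19 D categories and 4 J genes. The features called are given below, and no J gene was called. Among residues tryptophan was called, at -0.653 points LG minus spleen (adjusted permutation p = 0.007). Among D genes IGHD4-1 (-1.60 points) and IGHD6-1 (0.203 points) were called (adjusted permutation p = 0.0349 each). IGHD6-1 was too sparse in the LG for a lower value to be tested there. For the IgD share of counts, LG minus spleen was -3.58 points, but IgD held only 0.0510% of the long and 0.0209% of the shorter LG counts, against 9.58% and 5.97% in the spleen. The LG difference was 0.0300 points at that low level of IgD, against 3.61 points in the spleen. A comparison in points cannot separate the IgD level of a tissue from a trait of its long clonotypes, so no conclusion is drawn. For clonotypes with more than 1 count the difference between long and shorter ones was 6.38 points higher in the LG (adjusted permutation p = 0.0245). For clonotypes found in another mouse it was 13.9 points higher in the LG (adjusted permutation p = 8e-05), where the 5 NC mice and PBS-T mouse 7 share long clonotypes with another library, and the part of that sharing in the difference was not tested.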

How the results depend on the processing

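D and J genes and residues of long against shorter clonotypes kept their counts of calls within 1.5 times under every alternative run, except D genes of the LG, which went from 4 to 7 with a threshold of 16 residues and to 13 with lower values tested at any expected number. V genes of the LG (1 called) came to 0 with clonotypes kept in 1 library, with 5 or more counts or with sequences in 2 or more mice removed, to 8 with a threshold of 16 and to 32 with lower values tested at any expected number. Leaving out 1 mouse gave 0 to 3, with 3 without NOD-FMT mouse 9. V genes of the spleen (65) came to 17 with 5 or more counts, 38 with thinned libraries and 26 with a threshold of 20. Features of the spleen (10) came to 5 with 5 or more counts (of which log2 counts turned, and IgA mutations and the IgE share were not among the 10) and 4 weighted by counts, and features of the LG (0) to 1 with a threshold of 16, 3 weighted by counts, and 0 to 1 without 1 mouse (1 without NC mouse 2 or 5).

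Between NOD-FMT and PBS-T, V genes called (0) came to 1 in the LG with a threshold of 16 and 1 in the spleen with 5 or more counts. Features called in the LG (0) came to 2 with a threshold of 16 and 0 to 1 without 1 mouse (1 without NOD-FMT mouse 10). The 1 feature called in the spleen, net charge, came to 0 with 5 or more counts, thinned libraries, ranks, thresholds of 16 and 20, weighting by counts and the replicate block, where its adjusted exact permutation p was 0.105. The replicate block changed no other call. The numbers pair no treated mice across groups, since the mean correlation of same-numbered mice was -0.0835 in the LG (2 of 9 over 0.1) and 0.144 in the spleen (5 of 9).

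For the long share, NOD-FMT minus PBS-T in the LG (-0.0553 points) became 0.0725 with clonotypes kept in 1 library, 0.0561 by HCDR3 nucleotides, 0.0381 in merged and 0.192 in other libraries and 0.0308 with sequences in 2 or more mice removed, and ran from -0.230 to 0.151 without 1 mouse. In the spleen it ran from -0.0983 to 0.0908. NOD-FMT minus NC in the spleen became -0.211 with 5 or more counts and -0.00420 with a threshold of 20, and ran from -0.123 (without NC mouse 2) to 0.230. PBS-T minus NC became -0.00116 in the spleen with a threshold of 20 and ran from -0.0932 (without NC mouse 2) to 0.260. In the LG it ran from -1.36 to -0.820, and was called without PBS-T mouse 9 (-1.26, adjusted exact permutation p = 0.0497). With a threshold of 20 the count shares turned to -0.0344 in the LG and 0.0260 in the spleen. LG minus spleen became 1.41 with 5 or more counts and 0.547 with thinned libraries. IgA minus IgM became -0.0408 in the LG with thinned libraries, and in the spleen 0.865 with 5 or more counts, 0.380 with thinned libraries and 0.668 with a threshold of 16. IgG minus IgM became -0.00982 in the spleen with a threshold of 20 and ran from 0.301 to 0.621 in the LG (permutation p = 0.0462 without NOD-FMT mouse 5). The causes were not tested. A threshold of 20 left too few LG libraries for several results, and the median of 28.5 long clonotypes limits every LG result on single genes.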
